A study of Mus musculus with 12 samples.

Results

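The imprinted genes described here are 39 genes chosen by name, as loci whose expression is under the control of DNA methylation. No measured value enters that rule, although the genes were chosen with earlier results of these data known. Of the 39, 38 had a probe named through its RefSeq accession, and 33 gave a signal that could be tested among 31454 genes or unnamed probes tested in all. H19 had no probe matched by accession, and no value is given for it.

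RNA came from the gonadal white adipose tissue (WAT) of male C57BL/6N mice aged 59 to 67 days. Mice deficient in Gadd45a and mice deficient in Ing1 had been interbred to give 4 genotypes: wild type (WT), single mutants lacking Gadd45a (Gadd45a-KO), single mutants lacking Ing1 (Ing1-KO), and Gadd45a-/-;Ing1-/- mice lacking both (DKO). The labels name no treatment and no driver that would restrict either loss to a cell type. Each of the 12 one-colour arrays holds RNA pooled from 3 animals, so that 3 arrays and 9 animals stand behind each genotype. Values are normalised log2 signals, and a difference of 1 on that scale is a doubling of the signal. The 3 arrays per genotype limit the precision of every mean.

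Some features of the whole series touch the results below. The 3 slides carry 1 array of each genotype, and the replicate number is the slide number. Ing1 was 8.35-fold lower in Ing1-KO and 8.80-fold lower in DKO than in WT. The Gadd45a probe was higher in the arrays labelled as lacking Gadd45a, by 1.10 on the log2 scale in DKO against WT (adjusted p = 0.0287, limma), so it does not check the Gadd45a labels, and whether it lies in the deleted part is not given in the sources used here. The loss of Gadd45a in Gadd45a-KO and DKO, and directions between arrays with and without it, therefore rest on the labels. Ing1 did separate DKO from Gadd45a-KO, at 9.13, 9.23 and 9.60 against 12.50, 12.37 and 12.78. All 9 adipocyte markers (among them Adipoq and Plin1) were above background, as the tissue label requires. Skeletal muscle markers were highest in Ing1-KO replicate 1, DKO replicate 1 and Gadd45a-KO replicate 1, at 3.73, 2.19 and 1.32 above their mean over the arrays, and between -0.96 and -0.37 in the others.

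An imprinted gene is transcribed mainly or only from the copy inherited from a given parent. The choice is set by DNA methylation laid down in the germ line at imprinting control regions, which then steer a whole domain of neighbouring genes, often through a long noncoding RNA that silences genes in cis. Many imprinted genes act on growth, and several (Dlk1, Mest, Peg3, Ndn) are known from work on adipose tissue. The arrays measure total RNA of a gene and do not tell the parental copies apart.

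The windows upstream of 5 genes are shown because they stand for 5 imprinted domains, with 4 of the genes called below and Peg3 holding the largest difference, and because CpG is the dinucleotide that imprinting methylates. Each runs 5′ to 3′ on the gene's own strand over the 250 bases before a RefSeq start on GRCm38.p6, with every CpG in capitals. Kcnq1ot1 lies at chr7:143296548-143296797 on the minus strand, Snrpn at chr7:60005200-60005449 on the minus strand, Nnat at chr2:157559828-157560077 on the plus strand, Commd1 at chr11:22982285-22982534 on the minus strand, and Peg3 at chr7:6730420-6730669 on the minus strand.
Kcnq1ot1: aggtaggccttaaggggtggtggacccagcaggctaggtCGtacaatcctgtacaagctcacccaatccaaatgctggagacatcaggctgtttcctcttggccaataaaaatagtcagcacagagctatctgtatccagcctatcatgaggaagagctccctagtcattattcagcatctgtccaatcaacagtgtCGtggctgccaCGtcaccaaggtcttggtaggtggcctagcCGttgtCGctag
Snrpn: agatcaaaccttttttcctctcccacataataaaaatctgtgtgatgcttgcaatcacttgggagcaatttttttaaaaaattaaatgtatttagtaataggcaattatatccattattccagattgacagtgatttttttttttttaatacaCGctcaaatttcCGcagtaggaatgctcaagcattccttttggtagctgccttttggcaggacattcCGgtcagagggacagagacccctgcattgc
Nnat: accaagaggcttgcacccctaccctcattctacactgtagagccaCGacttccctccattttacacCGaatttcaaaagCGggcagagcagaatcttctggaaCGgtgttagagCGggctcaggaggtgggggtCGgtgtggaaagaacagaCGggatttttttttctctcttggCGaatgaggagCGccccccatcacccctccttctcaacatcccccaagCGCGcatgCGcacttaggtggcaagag
Commd1: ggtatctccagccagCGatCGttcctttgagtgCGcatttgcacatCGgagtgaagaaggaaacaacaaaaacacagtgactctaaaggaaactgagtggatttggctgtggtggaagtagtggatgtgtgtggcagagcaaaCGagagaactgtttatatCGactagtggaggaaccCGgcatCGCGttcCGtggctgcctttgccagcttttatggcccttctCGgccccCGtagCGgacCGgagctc
Peg3: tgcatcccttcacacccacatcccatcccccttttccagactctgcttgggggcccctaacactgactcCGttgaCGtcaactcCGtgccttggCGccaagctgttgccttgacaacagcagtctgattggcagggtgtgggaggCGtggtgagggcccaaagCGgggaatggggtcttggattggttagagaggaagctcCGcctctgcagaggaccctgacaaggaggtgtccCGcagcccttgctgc
These windows hold 5 CpGs for Kcnq1ot1, 3 for Snrpn, 12 for Nnat, 14 for Commd1 and 8 for Peg3. Over windows that also take in the 50 bases after the start, the 33 imprinted genes with an entry in the RefSeq promoter table (not the same 33 as those tested) held a median of 17 CpGs, against 8 in all 27025 genes of the table. Of these imprinted windows, 57.6% had at least 15 CpGs, against 37.1% of all genes. Each gene counts with 1 window. Where there were several, as for Snrpn (4) and Commd1 (2), the longer window with the most CpGs was taken. This choice raises the counts of genes with several windows, and it was made for all genes alike. The hexamer TGCCGC, the known recognition sequence of the imprint-protecting zinc finger protein ZFP57, stood on either strand in 9 of the 33 windows (27.3%) and in 12.2% of all windows. The hexamer itself holds a CpG, so windows rich in CpG and windows with the hexamer overlap by construction. Among genes printed above it was found in the longer windows of Snrpn, Nnat and Commd1, but within none of the 5 stretches upstream of the start. A match is only a run of letters, and the data hold no methylation or binding.

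Of the 38 genes with a probe, Usp29, Phlda2, Peg10 and Zdbf2 were well above background on 0 of 12 arrays, and only a bound exists for them in this tissue. Zim1, a zinc finger gene beside Peg3, was well above background on 2 arrays, both DKO, and failed the minimum of 3 arrays. Its log2 signal was 4.53, 4.91 and 3.87 in DKO replicates 1 to 3. In every other group it was not well above background on any array. The DKO mean was set against the lowest signal of any probe called above background on the other arrays. It was 1.40-fold higher than that for WT, 1.57-fold for Gadd45a-KO and 1.41-fold for Ing1-KO. These folds are not lower bounds, since DKO replicate 3 entered the mean at its own signal without being well above background. With 2 arrays above background, Zim1 was not among the genes tested. Where no filter was set and in the authors' deposited values it entered the fit. There its adjusted p for DKO above Gadd45a-KO was between 0.0215 and 0.0384 (limma). The Gadd45a-KO values in that comparison were background readings, and only DKO arrays rose above background. This pass is therefore not used as support for a difference. Igf2, the fetal growth factor, was measured on 6 of 12 arrays (1 WT, 2 Gadd45a-KO, 1 Ing1-KO and 2 DKO), and the other 32 genes tested were well above background on all 12.

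**Figure D1:**
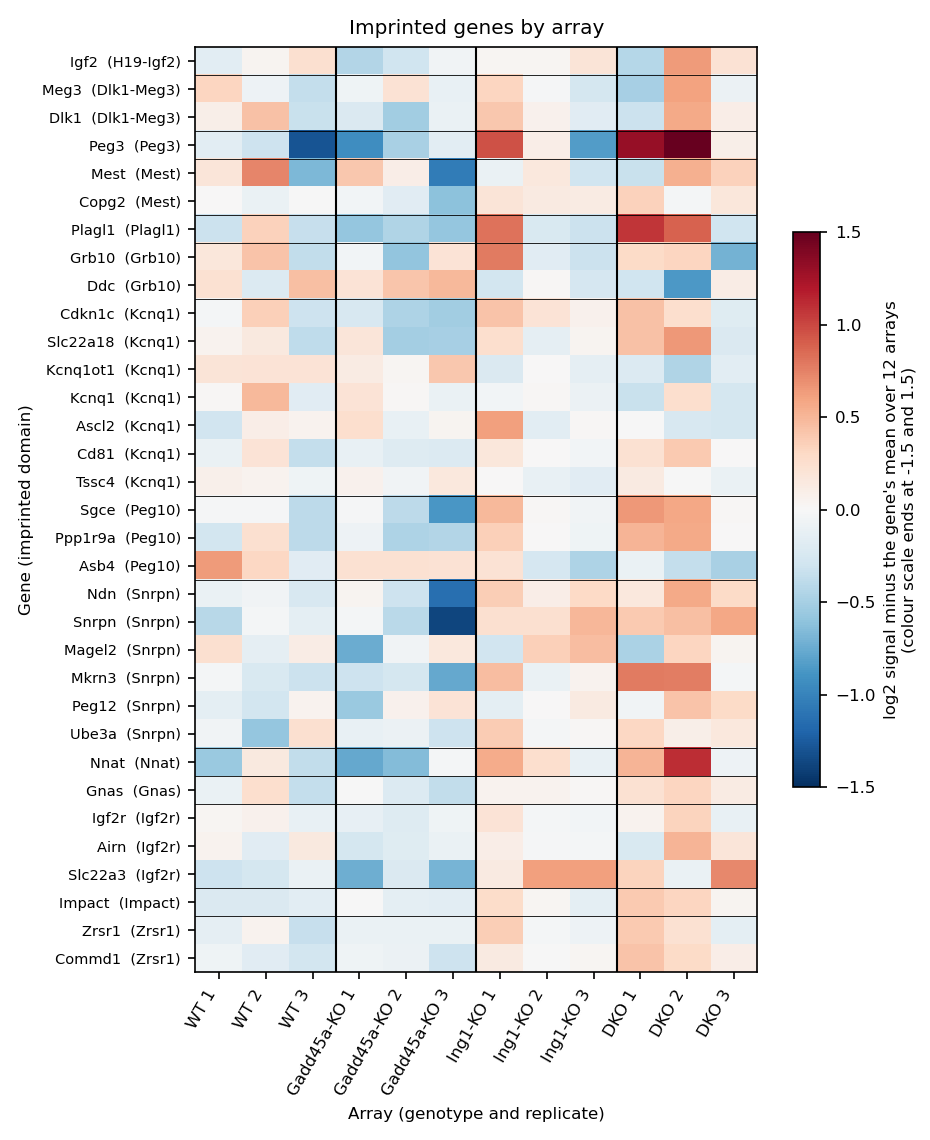
Each row is an imprinted gene with its domain and each column an array, and the colour is the log2 signal minus that gene's mean over the 12 arrays, with the scale ending at -1.5 and 1.5. The DKO replicate 2 column is mostly red, with 26 of 33 genes above their own mean, and the Gadd45a-KO replicate 2 column mostly blue, with 7 of 33 above it.

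Most of the imprinted genes had their highest mean in DKO and their lowest in Gadd45a-KO. DKO held the highest of the 4 genotype means for 22 of the 33 genes, against 33% of all genes tested. Gadd45a-KO held the lowest for 21 of the 33, against 29.2% of all. The median deviation of the 33 genes from their own means was highest in DKO replicate 2 (0.33) and lowest in WT replicate 3 (-0.24). It was 0.01 in DKO replicate 3, so the DKO arrays were not alike in this.

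The comparison of DKO with Gadd45a-KO sets mice with and without Ing1 side by side where Gadd45a is labelled as absent in both. In it 9 of the 33 imprinted genes passed an adjusted p of 0.05 (27.3%; limma, all genes fitted, Benjamini-Hochberg), where 15% of all genes tested did. Snrpn, Slc22a3, Mkrn3, Commd1, Sgce, Ppp1r9a, Ndn and Nnat were higher in DKO, and 6.49% of all genes were called in that direction. Kcnq1ot1 was lower, as were 8.51% of all genes. At an unadjusted p under 0.05 there were 19 of the 33 and 33% of all genes. Of all calls in this comparison 43.3% were higher, and with arrays centred on their median instead 58.9% were. The median log2 fold change was 0.38 over the 33 genes, with 26 above 0, and -0.03 over all genes. Within slides 1, 2 and 3 the median of the imprinted genes was 0.33, 0.52 and 0.25. Fewer cells of a type and less RNA per cell cannot be told apart in these pools.

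The calls rest on few arrays. Without Gadd45a-KO replicate 3 or without DKO replicate 1, 0 of the 33 genes passed, and 1 passed without Gadd45a-KO replicate 2 or without DKO replicate 2. Leaving out Ing1-KO replicate 2 or 3, which only enter the shared spread, left 4, whereas 15 passed without WT replicate 2 and 14 without DKO replicate 3. The share of all genes called moved along, from 15% to between 1.73% and 22.5% with 1 array left out. Without the 3 arrays highest in muscle markers 0 imprinted genes and 1 gene in all passed, and 0 and 500 with the 6 compared arrays alone. Those 3 arrays are replicate 1 of Gadd45a-KO, Ing1-KO and DKO, so both compared groups lose an array. Muscle signal and the smaller number of arrays cannot be told apart there. With the slide as a block 16 imprinted genes passed and 19.4% of all genes did. These were the 9 together with Peg3, Copg2, Plagl1, Cdkn1c, Gnas and Impact, all higher in DKO, and Ddc, which was lower. With a plain empirical Bayes fit only Snrpn, Mkrn3 and Slc22a3 passed, and their share of 9.09% was then below the 10.5% of all genes. In the authors' deposited values 12 of 34 passed, 7 of the 9 among them, and without a filter on dim probes 5 of 38, 4 of the 9 among them. With only probes well above background on all 12 arrays, 10 of 32 passed (31.2%), the 9 among them, and 19.6% of all genes did. The fold changes of the 9 had 1 direction under each of 23 alternatives.

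**Figure D2:**
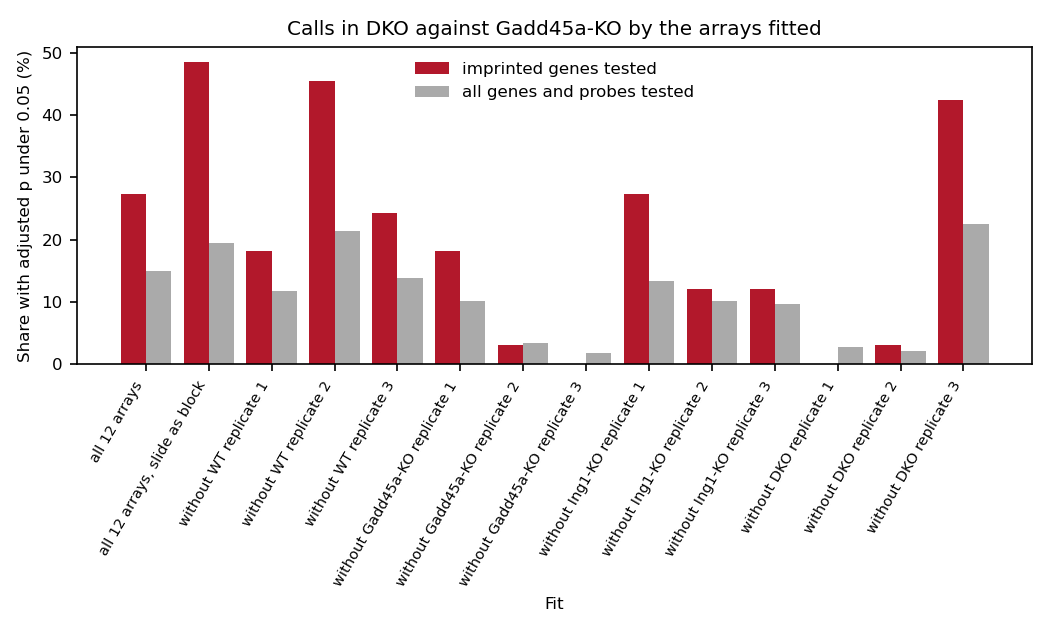
Bars give the percentage of imprinted genes (red) and of all genes tested (grey) with an adjusted p under 0.05 in DKO against Gadd45a-KO, for the 12 arrays, with the slide as a block, and with each array left out. The red bar ranges from 0% without Gadd45a-KO replicate 3 or DKO replicate 1 to 48.5% with the slide as a block, and the grey bar moves with it.

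Markers of several cell types also differed between these groups, and their part in the result was not tested. The 9 adipocyte markers were all higher in DKO than in Gadd45a-KO, 4 of them called, with a median of 0.73. Their mean deviation per array lay between 0.03 and 0.59 in DKO, between -0.46 and -0.17 in Gadd45a-KO, between -0.32 and 0.24 in WT and between 0.01 and 0.18 in Ing1-KO. All 4 neutrophil markers and 4 of the 5 T cell markers were called lower, with medians of -3.82 and -1.14. The 3 brown fat markers were higher with a median of 2.55, 1 of them called. Neutrophil markers ranged from 0.97 to 4.29 in Gadd45a-KO and from -1.49 to -1.24 in DKO, and T cell markers from 0.31 to 0.73 and from -1.40 to -0.03. No marker of these 4 lists was below the background filter. All 5 endothelial markers were higher, 1 called, with a median of 0.37, and ranged from -0.39 to -0.05 in Gadd45a-KO and from -0.03 to 0.61 in DKO. None of the 4 B cell markers was higher and 1 was called lower, with a median of -0.78, a range of 0.16 to 0.47 in Gadd45a-KO and of -1.21 to 0.07 in DKO. The 4 macrophage markers tested were likewise all below 0, 1 of them called, with a median of -0.30. Of the 9 skeletal muscle markers 6 were higher and 1 was called, and of the 8 markers of adipocyte progenitors and stroma 6 were higher and 0 called, with medians of 0.36 and 0.10. Only 3 of 7 mesothelial and 2 of 5 epididymis and testis markers could be tested, with 1 and 0 called and medians of -0.36 and -0.24.

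The Snrpn domain on chromosome 7, the mouse counterpart of the Prader-Willi region, held 3 of the 9 calls. Its paternally expressed genes code for a small nuclear ribonucleoprotein (Snrpn), a growth suppressor of the MAGE family (Ndn), a relative of it (Magel2), a makorin ring finger protein (Mkrn3) and Peg12, and Ube3a is a ubiquitin ligase expressed from the maternal copy in neurons. Snrpn signals were 8.86, 9.25 and 9.13 in WT, 9.24, 8.87 and 7.90 in Gadd45a-KO, 9.51, 9.51 and 9.77 in Ing1-KO and 9.67, 9.73 and 9.85 in DKO (replicates 1 to 3). The DKO arrays lay above all the Gadd45a-KO and WT arrays, and the spread in Gadd45a-KO came mostly from its replicate 3. DKO exceeded Gadd45a-KO by 1.08 ± 0.27 (SE; adjusted p = 0.0254, limma), with 0.42, 0.86 and 1.95 within slides 1 to 3. This adjusted p lay between 0.0168 and 0.0961 over the 23 alternatives and was above 0.05 without Gadd45a-KO replicate 2 or 3 or DKO replicate 1 or 2.

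Ndn followed Snrpn closely. Its signals were 9.03, 9.08 and 8.89 in WT, 9.17, 8.82 and 7.999 in Gadd45a-KO, 9.50, 9.23 and 9.43 in Ing1-KO and 9.29, 9.70 and 9.42 in DKO. Again the low value belonged to Gadd45a-KO replicate 3, and the DKO arrays did not overlap with those of Gadd45a-KO or WT. The difference between DKO and Gadd45a-KO was 0.80 ± 0.24 (adjusted p = 0.0440, limma). It was 0.12 within slide 1 and 1.42 within slide 3, and the adjusted p rose above 0.05, to 0.154 at most, when any array other than WT replicate 2 or Gadd45a-KO replicate 1 was left out.

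Mkrn3 was 5.66, 5.46 and 5.37 in WT, 5.38, 5.43 and 4.92 in Gadd45a-KO, 6.15, 5.59 and 5.75 in Ing1-KO and 6.46, 6.46 and 5.66 in DKO. Each DKO array was above each Gadd45a-KO array, though DKO replicate 3 barely exceeded the highest WT array. The difference was 0.95 ± 0.26 (adjusted p = 0.0329, limma), and 1.09, 1.03 and 0.74 within the slides. The call was lost without any of the Gadd45a-KO arrays or DKO replicate 1 or 2, with an adjusted p of up to 0.125. The other 3 genes of the domain did not pass. Ube3a, Peg12 and Magel2 differed by 0.35 ± 0.19, 0.32 ± 0.21 and 0.18 ± 0.30 (SE), and in all 6 genes the estimate was above 0.

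The Peg10 domain on chromosome 6 gave 2 calls. Sgce, which encodes epsilon-sarcoglycan from the paternal copy, had signals of 11.50, 11.49 and 11.12 in WT, 11.50, 11.12 and 10.63 in Gadd45a-KO, 11.999, 11.53 and 11.46 in Ing1-KO and 12.16, 12.09 and 11.53 in DKO. The lowest DKO array stood only just above the highest Gadd45a-KO array. The difference was 0.84 ± 0.24 (adjusted p = 0.0365, limma), and it was lost, with an adjusted p of up to 0.143, without array 2 or 3 of either single knockout or array 1 or 2 of DKO. Ppp1r9a, the neurabin gene, had signals of 10.31, 10.82 and 10.18 in WT, 10.50, 10.11 and 10.14 in Gadd45a-KO, 10.94, 10.59 and 10.52 in Ing1-KO and 11.09, 11.15 and 10.58 in DKO. The DKO arrays lay above those of Gadd45a-KO but overlapped with WT. The difference was 0.69 ± 0.20 (adjusted p = 0.0419, limma), lost without those same 6 arrays or WT replicate 1, with an adjusted p of up to 0.150. Asb4, an ankyrin repeat protein of the domain, had a log2 fold change of -0.54 ± 0.24 and did not pass (adjusted p = 0.136).

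Nnat, which encodes the small membrane proteolipid neuronatin from the paternal copy on chromosome 2, was 13.54, 14.25 and 13.74 in WT, 13.34, 13.46 and 14.07 in Gadd45a-KO, 14.66, 14.35 and 13.99 in Ing1-KO and 14.61, 15.21 and 14.03 in DKO. DKO replicate 3 fell below Gadd45a-KO replicate 3, so the groups overlap. The difference of 1.00 ± 0.30 passed (adjusted p = 0.0464, limma), with 1.28 and 1.76 within slides 1 and 2 and -0.05 within slide 3. It passed in 7 of the 23 alternatives. The call was lost, with an adjusted p of up to 0.176, on leaving out any array other than WT replicate 2 or DKO replicate 3.

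Peg3 had the largest difference of the 33 genes without passing. It encodes a zinc finger protein expressed from the paternal copy and tied to fetal growth and maternal behaviour. Its signals were 7.84, 7.69 and 6.71 in WT, 7.07, 7.51 and 7.84 in Gadd45a-KO, 8.95, 8.10 and 7.16 in Ing1-KO and 9.31, 9.73 and 8.09 in DKO. All DKO arrays lay above those of Gadd45a-KO and WT, and the SD of 0.85 within DKO was large. DKO differed from Gadd45a-KO by 1.57 ± 0.49 (adjusted p = 0.0509, limma), by 2.24, 2.22 and 0.25 within the slides. It passed in 11 of the 23 alternatives, with an adjusted p between 0.0124 without DKO replicate 3 and 0.0497 when every probe was fitted. These included median centring, normexp, the authors' deposited values and the slide as a block (0.0459, 0.0459, 0.0453 and 0.0277). Zim1 of this domain was well above background in DKO alone.

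The Kcnq1 domain on chromosome 7 is silenced on the paternal copy by the long noncoding RNA Kcnq1ot1, which is transcribed from the paternal copy against Kcnq1. Of the 33 imprinted genes tested, only Kcnq1ot1 was called lower. It stood at 10.54, 10.55 and 10.54 in WT, 10.47, 10.37 and 10.74 in Gadd45a-KO, 10.13, 10.35 and 10.21 in Ing1-KO and 10.14, 9.90 and 10.18 in DKO. The DKO and Ing1-KO arrays were all below the WT arrays, which agreed to within 0.01 (SD). DKO was lower than Gadd45a-KO by a log2 difference of -0.46 ± 0.12 (adjusted p = 0.0329, limma), and by -0.33, -0.48 and -0.56 within the slides. The adjusted p rose to 0.126 at most, and was above 0.05 without any of the Gadd45a-KO arrays, Ing1-KO replicate 3 or DKO replicate 1 or 2, and with arrays centred on their median.

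The protein-coding genes of the Kcnq1 domain did not pass with the 12 arrays and no block. Cdkn1c, the cell cycle inhibitor p57, was 10.62, 11.01 and 10.34 in WT, 10.41, 10.19 and 10.13 in Gadd45a-KO, 11.07, 10.86 and 10.72 in Ing1-KO and 11.09, 10.90 and 10.47 in DKO. Its Gadd45a-KO arrays lay below all those of Ing1-KO and DKO, and DKO differed from Gadd45a-KO by 0.58 ± 0.19 (adjusted p = 0.0607). It passed in 5 of the 23 alternatives, among them normexp, the authors' deposited values and the slide as a block (adjusted p = 0.0330, 0.0342 and 0.0223, limma). The transporter gene Slc22a18 differed by 0.57 ± 0.25 and the tetraspanin gene Cd81 by 0.38 ± 0.15, and both passed without DKO replicate 3, Cd81 also without WT replicate 2. Kcnq1, a potassium channel, Ascl2, a basic helix-loop-helix factor, and Tssc4 lay between -0.23 and -0.04.

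In the Igf2r domain on chromosome 17, where the paternal noncoding RNA Airn runs against the mannose 6-phosphate receptor gene Igf2r, the call fell on Slc22a3, an organic cation transporter. Slc22a3 was 6.79, 6.83 and 6.99 in WT, 6.36, 6.88 and 6.40 in Gadd45a-KO, 7.23, 7.72 and 7.72 in Ing1-KO and 7.43, 7.0 and 7.82 in DKO. Ing1-KO and DKO arrays were all above the others, DKO replicate 2 by the least. DKO exceeded Gadd45a-KO by 0.87 ± 0.23 (adjusted p = 0.0305, limma), by 1.07, 0.12 and 1.42 within the slides. The call was lost without array 1 or 3 of either group, with an adjusted p of up to 0.110. Airn and Igf2r themselves differed by 0.33 ± 0.16 and 0.22 ± 0.12 and did not pass.

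Commd1, a copper metabolism gene on chromosome 11 whose intron hosts the paternally expressed Zrsr1, had signals of 11.91, 11.81 and 11.70 in WT, 11.92, 11.90 and 11.67 in Gadd45a-KO, 12.11, 11.97 and 12.01 in Ing1-KO and 12.41, 12.26 and 12.08 in DKO. The DKO arrays lay above all WT and Gadd45a-KO arrays. The difference from Gadd45a-KO was small and even, 0.42 ± 0.12 (adjusted p = 0.0346, limma), with 0.49, 0.36 and 0.40 within the slides. It was lost, with an adjusted p of up to 0.133, without array 2 or 3 of either single knockout or array 1 or 2 of DKO. Zrsr1, a splicing factor gene, differed by 0.26 ± 0.16 and did not pass. Impact, a regulator of translation under amino acid shortage, was 11.69, 11.68 and 11.74 in WT, 11.90, 11.75 and 11.74 in Gadd45a-KO, 12.18, 11.94 and 11.76 in Ing1-KO and 12.30, 12.22 and 11.94 in DKO. Its DKO arrays did not overlap with those of Gadd45a-KO or WT, and the difference of 0.36 ± 0.13 from Gadd45a-KO did not pass (adjusted p = 0.0753), except with the slide as a block (0.0451) and without DKO replicate 3 (0.0263).

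**Figure D3:**
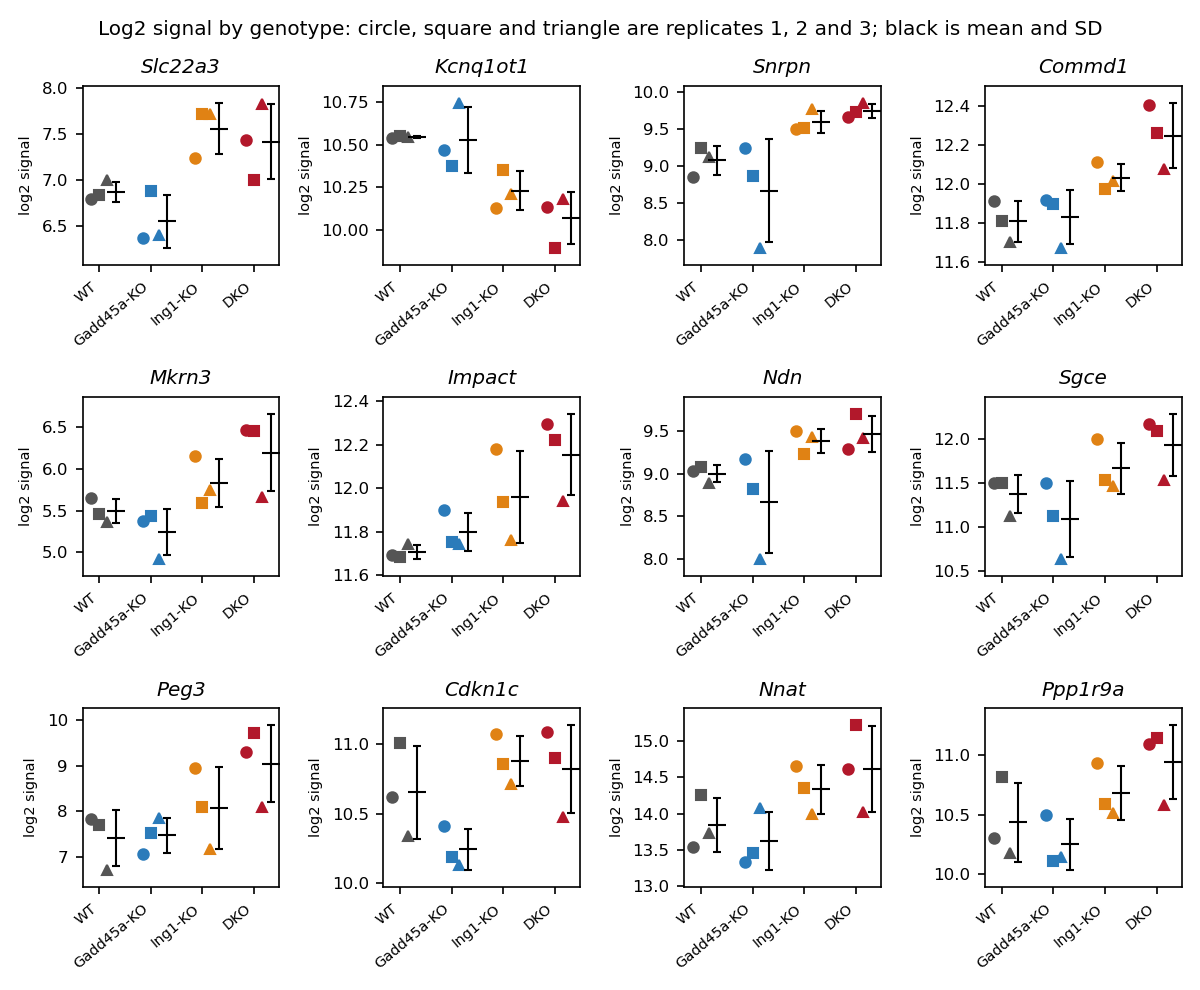
Normalised log2 signal of the 12 imprinted genes with the smallest F-test p, 1 panel each with its own axis, by genotype. Circles, squares and triangles are replicates 1, 2 and 3, and black marks give the mean and SD of 3 arrays. Ing1-KO and DKO sit above the other genotypes for Snrpn, Ndn, Slc22a3 and Commd1 and below them for Kcnq1ot1.

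The remaining imprinted genes did not pass in DKO against Gadd45a-KO, although 4 of them, Plagl1, Ddc, Copg2 and Gnas, did with the slide as a block (adjusted p = 0.0364, 0.0465, 0.0438 and 0.0488, limma). Of the 23 alternatives, Plagl1 and Copg2 passed in 4 each, Ddc in 3 and Gnas in 5. Plagl1, a zinc finger growth suppressor on chromosome 10, was higher by 1.09 ± 0.36 (adjusted p = 0.0612), with its SD at 0.07 in Gadd45a-KO and 0.75 in DKO. Ddc, the aromatic amino acid decarboxylase next to Grb10, had a log2 fold change of -0.72 ± 0.24 (adjusted p = 0.0624), and Grb10, an adaptor that inhibits insulin signalling, differed by 0.11 ± 0.36. Copg2, a coat protein gene beside Mest, differed by 0.44 ± 0.15 (adjusted p = 0.0601) and Mest, a gene raised in expanding adipocytes, by 0.37 ± 0.40. Gnas, which encodes the stimulatory G protein alpha subunit, differed by 0.42 ± 0.15. The growth regulators Igf2, Dlk1 and Meg3 differed by 0.41 ± 0.29, 0.39 ± 0.26 and -0.01 ± 0.26. Of the 33 genes, 18 had groups that did not overlap in this comparison, against 37.3% of all genes. In DKO 15 of the 33 were higher and 3 lower, against 16.4% and 20.9% of all genes.

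**Figure D4:**
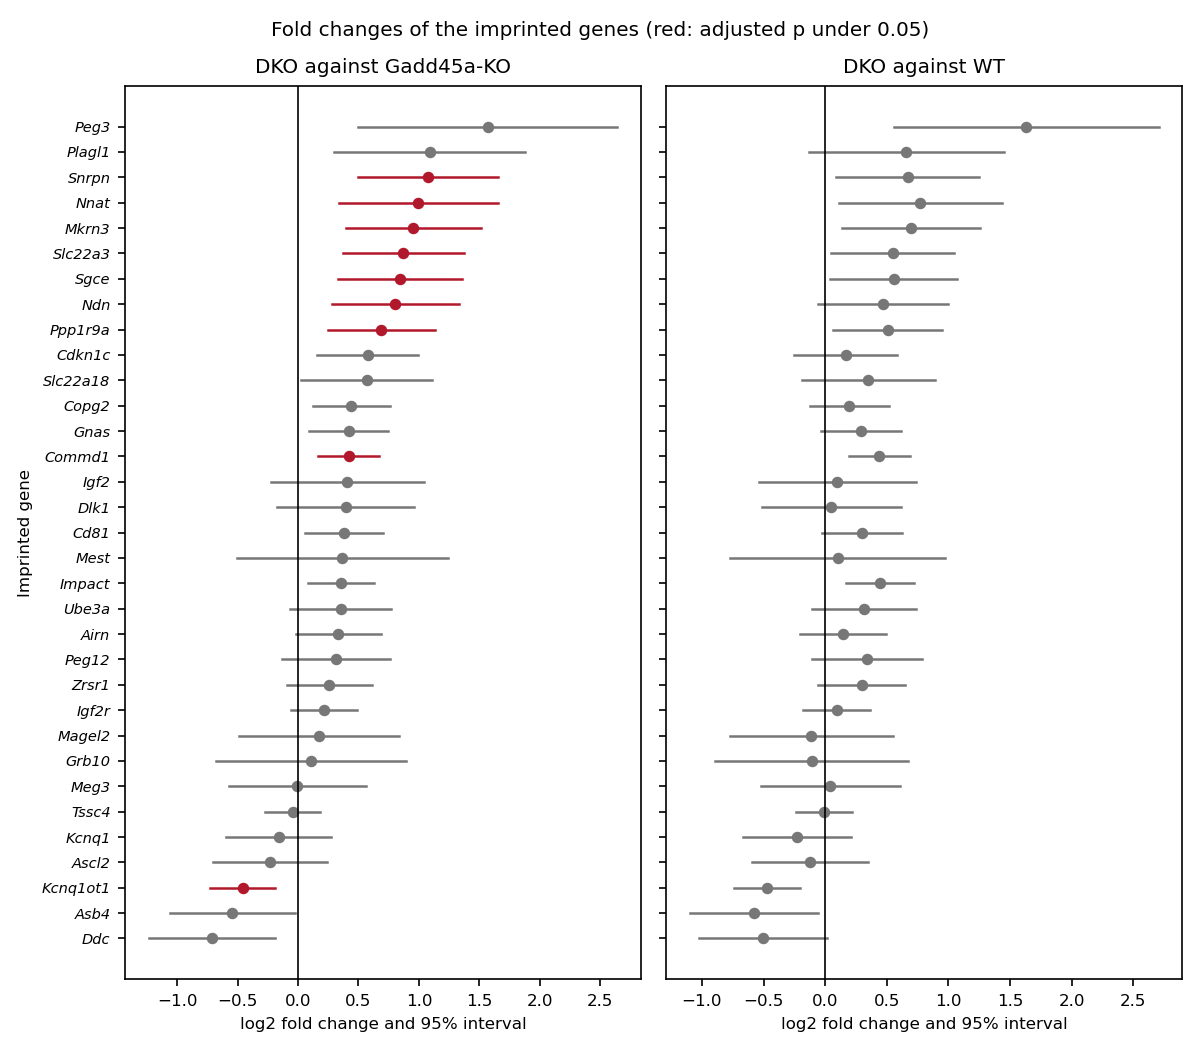
Log2 fold change with its 95% interval from limma for the 33 imprinted genes, ordered by the difference between DKO and Gadd45a-KO (left), beside DKO against WT (right). Red marks an adjusted p under 0.05. The 9 red genes are all on the left, and Peg3 at 1.57 and Plagl1 at 1.09 have wide grey intervals.

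Genes of both parental copies were among the calls. Of 16 paternally expressed genes tested, 6 were called in DKO against Gadd45a-KO (5 higher, 1 lower) with a median log2 fold change of 0.40. Of 15 maternally expressed genes, 3 were called, all higher, with a median of 0.35. Over all genes 15% were called and the median was -0.03, so that the maternal share of 20% was near that of all genes. Ddc and Gnas, which are expressed from different copies in different tissues or transcripts, are listed as mixed and are in neither group. The other genes are grouped by the copy listed for them, which the arrays do not check in this tissue. The difference between the parental groups was not tested.

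Against WT, none of the 33 imprinted genes passed in any genotype. In DKO 0 of 33 passed (limma), against 0.165% of all genes, and 11 had an unadjusted p under 0.05 (23% of all genes did). Their median was 0.29, with 25 above 0, against -0.05 over all genes, and within the slides it was 0.32, 0.33 and 0.20. Peg3 differed by 1.63 ± 0.49 (adjusted p = 0.101), Commd1 by 0.44 ± 0.12 and Kcnq1ot1 by -0.47 ± 0.12 (both adjusted p = 0.0804), and Impact by 0.45 ± 0.13 (adjusted p = 0.0930). The groups of 9 genes did not overlap, against 22.3% of all genes, with 8 higher (9.59% of all genes) and Kcnq1ot1 lower (12.7%). With the slide as a block Commd1 passed (adjusted p = 0.0454). Without DKO replicate 3, 7 genes passed, and 3332 genes in all where 52 did with the 12 arrays. The 3 comparisons with WT share its arrays, and DKO against WT shares the DKO arrays with the comparison above.

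In Ing1-KO against WT 0 of 33 passed (0.00318% of all genes did) and 2 had an unadjusted p under 0.05 (8.63% of all genes). These were Slc22a3, higher by 0.69 ± 0.23, and Kcnq1ot1, with a log2 fold change of -0.31 ± 0.12 (adjusted p = 0.539 and 0.565). The median was 0.13, with 27 genes above 0, and 0.28, -0.02 and 0.16 within the slides. In 7 genes the groups did not overlap, against 17.5% of all genes. In Gadd45a-KO against WT 0 of 33 passed, as did 0% of all genes, and 0 had an unadjusted p under 0.05 (2.35% of all genes did). The median was -0.18, with 24 genes below 0, and -0.06, -0.21 and -0.01 within the slides. Plagl1 was the gene whose groups did not overlap, where 8.12% of all genes did not. Its Gadd45a-KO signals of 11.62, 11.75 and 11.63 lay below the WT signals of 11.88, 12.56 and 11.86.

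DKO and Ing1-KO differ in Gadd45a alone by their labels. None of the 33 imprinted genes passed (limma; 0.00318% of all genes did) and 0 had an unadjusted p under 0.05 (3.51% of all genes). The median was 0.08, Peg3 had the largest difference, 0.97 ± 0.49, and the groups of Gnas alone did not overlap, where those of 8.92% of all genes did not. The interaction, the effect of losing Ing1 in mice labelled Gadd45a-KO minus its effect in mice with Gadd45a, passed for 0 of 33 imprinted genes and 0% of all genes. The smallest unadjusted p among the imprinted genes was 0.107 (adjusted p = 0.727), and 5.92% of all genes had an unadjusted p under 0.05. The effects of Ing1 loss with and without Gadd45a were thus not shown to differ. In the F-test for any difference among the 4 genotypes 0 of 33 passed (1.99% of all genes did), the smallest adjusted p being 0.0695, and 14 had an unadjusted p under 0.05 (21.8% of all genes). Without DKO replicate 3, 6 passed this test, as did 2873 genes in all where 627 did with the 12 arrays.

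By the label of Ing1 alone, 5 of the 33 imprinted genes had all 6 arrays lacking Ing1 on 1 side of all 6 others, against 8.29% of all genes. Snrpn ranged from 9.51 to 9.85 in the arrays lacking Ing1 and from 7.90 to 9.25 in the others. For Ndn these ranges were 9.23 to 9.70 and 7.999 to 9.17, for Slc22a3 7.0 to 7.82 and 6.36 to 6.99, and for Commd1 11.97 to 12.41 and 11.67 to 11.92. Kcnq1ot1 was lower, 9.90 to 10.35 against 10.37 to 10.74. The gaps were narrow for Slc22a3 and Kcnq1ot1. No test was run on this split.

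Second probes gave a check on 16 of the genes. In DKO against Gadd45a-KO 16 of the 20 other probes tested had the sign of the brightest probe. Fitted with every probe, the second probe of Snrpn differed by 0.94 ± 0.26 (adjusted p = 0.0363, limma), that of Nnat by 1.17 ± 0.27 (adjusted p = 0.0210) and that of Peg3 by 1.74 ± 0.41 (adjusted p = 0.0223). Those of Kcnq1ot1, Ppp1r9a and Mkrn3 were -0.62 ± 0.22, 0.75 ± 0.27 and 0.65 ± 0.27 and did not pass (adjusted p = 0.0712, 0.0783 and 0.118). The 4 probes of opposite sign belonged to Meg3, Gnas and Impact. Meg3 differed by -0.01 on the brightest probe and by 0.09 and 0.03 on the others. Gnas, a locus with several promoters, differed by 0.42 on the brightest probe and by -0.37 on another, which match different RefSeq transcripts. Impact differed by 0.36 and by -0.01. In other genes the probes shared a sign and differed in size. The 4 Plagl1 probes differed by 1.09, 1.10, 0.21 and 0.18, in order of brightness, and of these the second passed (adjusted p = 0.0480). Peg12 differed by 0.32 and 0.05 and Asb4 by -0.54 and -0.09.

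Neighbours within a domain were compared over the 12 arrays in 6 of 11 listed pairs, those in which both genes were tested. Ndn and Snrpn varied together, with Pearson r = 0.95 (permutation p adjusted over the 6 pairs = 3e-04) and Spearman rho = 0.86 (permutation, adjusted p = 0.00468). Without the 2 arrays farthest from the median of Ndn r was 0.87, after removing genotype means it was 0.87, and within slides 1 to 3 it was 0.80, 0.95 and 1.00 over 4 arrays each. Zrsr1 and Commd1 had r = 0.77 (permutation, adjusted p = 0.0103) and rho = 0.62 (permutation, adjusted p = 0.114). Without 2 arrays their r was 0.64 and no longer passed (permutation, adjusted p = 0.0984). The pairs Meg3 and Dlk1, Igf2r and Airn, Mest and Copg2, and Grb10 and Ddc had r of 0.59, 0.59, 0.32 and -0.49, with rho of 0.52, 0.32, -0.13 and -0.52. None of these passed for either measure (permutation, adjusted p of r between 0.0712 and 0.304 and of rho between 0.128 and 0.685). For Igf2r and Airn r was -0.11 without 2 arrays, and for Mest and Copg2 it was -0.66. Both genes of a pair are read from the same arrays, and the permutations shuffled arrays across genotypes. A genotype difference shared by both genes therefore also lowers these p-values.

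**Figure D5:**
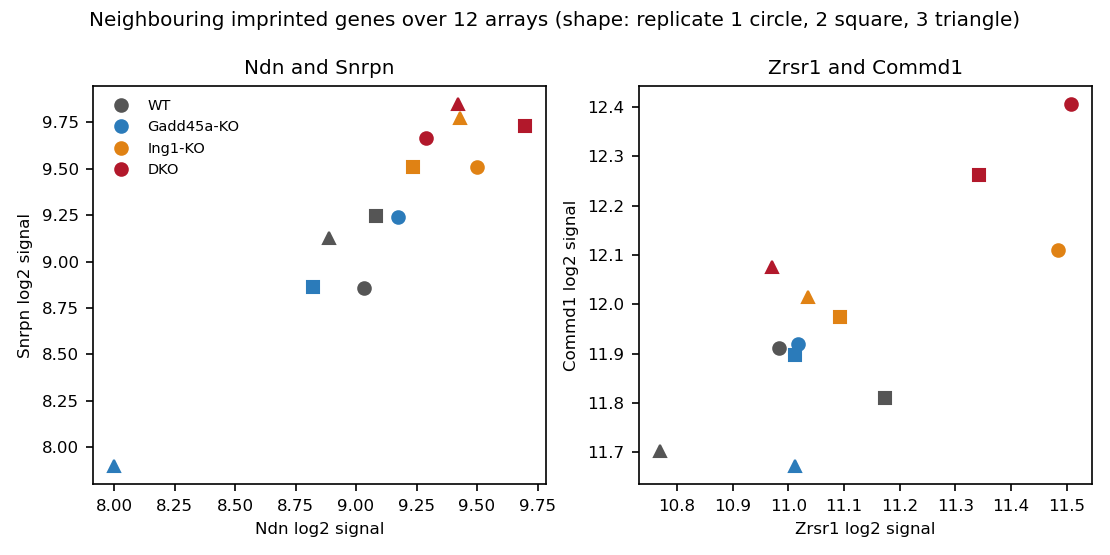
Log2 signal of Ndn against Snrpn (left) and of Zrsr1 against Commd1 (right), 1 point per array, coloured by genotype with the shape giving the replicate. Gadd45a-KO replicate 3 is the point at the lower left for Ndn and Snrpn, at 7.999 and 7.90.

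Other imprinted genes from a longer list moved in both directions. Of 46 listed, 42 were named on the array and 37 tested, and 7 were called in DKO against Gadd45a-KO, 4 higher and 3 lower (18.9%, against 15% of all genes). Blcap, whose intron hosts Nnat, was higher by 0.67 ± 0.13 (adjusted p = 0.0150, limma). Its signals were 10.84, 11.08 and 11.03 in Gadd45a-KO and 11.60, 11.68 and 11.69 in DKO, without overlap. The call was lost without Gadd45a-KO replicate 3 or DKO replicate 2 (adjusted p of up to 0.0547). Pon3, a paraoxonase of the Peg10 domain, was higher by 0.96 ± 0.17 (adjusted p = 0.0109), at 12.66, 12.48 and 12.42 in Gadd45a-KO and 13.67, 13.66 and 13.11 in DKO. Smoc1, a secreted matrix protein, and Mcts2, a retrogene expressed from the paternal copy, were higher by 1.00 ± 0.22 and 0.75 ± 0.18 (adjusted p = 0.0195 and 0.0244), and both calls were lost without replicate 2 or 3 of Gadd45a-KO or 1 or 2 of DKO (up to 0.0807 and 0.0993).

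Begain, a guanylate kinase-associated protein gene next to Dlk1, had the smallest F-test p of the list. It stood at 8.30, 8.31 and 8.05 in WT, 8.18, 8.39 and 8.33 in Gadd45a-KO, 7.14, 7.53 and 7.51 in Ing1-KO and 7.05, 7.31 and 7.38 in DKO. The 6 arrays lacking Ing1 were all below the others. Its log2 fold change was -1.05 ± 0.16 against Gadd45a-KO (adjusted p = 0.00831, limma) and -0.97 ± 0.16 against WT (adjusted p = 0.0382), although the latter passed on leaving out only 4 of the 12 arrays in turn. The 8 arrays whose removal ended that call, with an adjusted p of up to 0.165, were numbers 1 and 3 of WT, 1 and 2 of Gadd45a-KO, 2 and 3 of Ing1-KO and 1 and 2 of DKO. It was also lost in the authors' deposited values, without a filter and with a plain empirical Bayes fit. Against Gadd45a-KO the calls of Begain and Pon3 passed with each of the 12 arrays left out in turn (adjusted p of up to 0.0372 and 0.0481). They did not pass without the 3 arrays highest in muscle markers, which also takes an array from both compared groups. Sfmbt2, a Polycomb-related gene expressed from the paternal copy, and the tetraspanin gene Tspan32 were also called lower, with log2 fold changes of -1.12 ± 0.25 and -0.95 ± 0.26 (adjusted p = 0.0193 and 0.0358). Sfmbt2 was lost without Gadd45a-KO replicate 3 or DKO replicate 2 (up to 0.0786), and Tspan32 without any Gadd45a-KO array, Ing1-KO replicate 3 or DKO replicate 1 or 2 (up to 0.110) and with a plain empirical Bayes fit.

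Genes that write, read or erase the methylation of imprints were called only downward. Of 22 listed and 21 tested, 4 were called in DKO against Gadd45a-KO (19%, against 15% of all genes). All 4 were lower, where 8.51% of all genes were called in that direction. Tet1, which oxidises methylated cytosine, was 8.20, 8.05 and 8.22 in WT, 7.98, 7.83 and 8.11 in Gadd45a-KO, 7.31, 7.54 and 7.41 in Ing1-KO and 7.24, 7.14 and 7.35 in DKO. The arrays lacking Ing1 again lay below all others. The log2 fold change was -0.73 ± 0.14 against Gadd45a-KO (adjusted p = 0.0126, limma), lost without Gadd45a-KO replicate 3 (0.0529), and -0.91 ± 0.14 against WT (adjusted p = 0.0356), lost without any of the 8 arrays named for Begain (up to 0.165), without a filter and with a plain empirical Bayes fit. The maintenance methyltransferase Dnmt1, its partner Uhrf1 and the methyltransferase Dnmt3b were lower with log2 fold changes of -0.64 ± 0.17, -0.90 ± 0.21 and -0.52 ± 0.15 (adjusted p = 0.0329, 0.0229 and 0.0367). All 3 were lost without replicate 2 or 3 of Gadd45a-KO or 1 or 2 of DKO, Dnmt1 also without Gadd45a-KO replicate 1 and Dnmt3b without Ing1-KO replicate 2 or 3 (up to 0.122, 0.0853 and 0.140). The call of Dnmt3b was also lost with median centring, normexp, the authors' deposited values, no filter and a plain empirical Bayes fit. None of the list passed in the other 2 comparisons with WT or in DKO against Ing1-KO.

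The insulin-like growth factor axis, on which Igf2, Igf2r and Grb10 act, held 6 calls among 16 genes tested in DKO against Gadd45a-KO (37.5%, against 15% of all genes). The insulin receptor Insr, its substrate Irs1, the binding protein Igfbp4, the regulatory kinase subunit Pik3r1 and the kinase Akt2 were higher, by 0.74 ± 0.19, 0.79 ± 0.21, 0.69 ± 0.17, 0.93 ± 0.28 and 0.60 ± 0.17 (adjusted p = 0.0308, 0.0330, 0.0262, 0.0433 and 0.0349, limma). The binding protein Igfbp2 was lower, at 7.21, 7.04 and 7.41 in Gadd45a-KO and 5.87, 5.65 and 6.58 in DKO, a log2 fold change of -1.19 ± 0.33 (adjusted p = 0.0355). None of the 6 passed without Gadd45a-KO replicate 2 or 3 or DKO replicate 1 or 2. Pik3r1 passed on leaving out only 3 of the 12 arrays in turn (WT replicate 1 or 2 or DKO replicate 3). With normexp and in the authors' deposited values Pik3r1 and Igfbp2 did not pass, and with a plain empirical Bayes fit 2 of the 6, Insr and Igfbp4, did. Of the 16 genes, 3 passed without Gadd45a-KO replicate 1 and 3 without Ing1-KO replicate 3. Against WT 0 of the 16 passed in DKO (limma), with 6 at an unadjusted p under 0.05.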

How the data were processed

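Scanner files of 12 arrays were used; per the file headers, Feature Extraction 10.7.3.1 wrote them, and their intensity column used here is a processed signal already subtracted for background. The log2 table that the authors deposited (limma 3.26.9 per the submitters' processing notes; scale log2, filter and centring not stated, column medians between 7.82 and 7.85) served as an alternative. Its columns correlated at 0.872 or more with their own array and 0.461 at most with another.

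The processed signal was taken to log2, spots the software marked as feature outliers were left out (94 probes lost), and each array was shifted to a common 75th percentile. Of 55681 probes, 27509 were named through RefSeq accessions on GRCm38.p6. Probes well above background on at least 3 arrays were kept, the brightest per gene, which left 31454. limma 3.58.1 in R 4.3.3 fitted 4 genotype means (8 residual degrees of freedom, trend, robust), with two-sided tests and Benjamini-Hochberg adjustment over all genes tested. SE are from this fit, and the fit was tested on simulated data.

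Array medians of this signal ranged from 39.3 to 68.8. Every imprinted gene is accounted for, and values per array are given for those past 0.05 in any test and the 12 with the smallest F-test p. From each other list, genes past 0.05 and up to 4 with the smallest F-test p were eligible. The imprinted genes and lists were chosen with earlier results of these data known. Alternatives are named in the closing section. Replicate numbers are slides, and deviations of same-numbered arrays correlated unevenly (18 pairs, r between -0.28 and 0.42). The main fit leaves the slide out, and the block is an alternative. The result of 1 further cell type marker list is not reported here.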

Additional observations from a re-analysis of the deposited data

How the results depend on the processing

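In DKO against Gadd45a-KO, where 9 imprinted genes and 4718 genes in all passed, 16 imprinted genes passed with the replicate number as a block. With the filter set at all 12 arrays 10 of 32 passed (31.2%, against 19.6% of all genes). There were 5 (of 38 then tested) and 3075 genes without a filter on dim probes, 3 imprinted genes (9.09%, against 10.5% of all genes) with a plain empirical Bayes fit, 0 and 1 without the 3 arrays highest in skeletal muscle markers (an alternative added after seeing the data), and 0 and 500 with only the arrays compared. In DKO against WT, where 52 genes passed, the count was 202 with normexp, 24 without a filter, 4 with plain empirical Bayes, 654 with the replicate block, 1 without the 3 muscle-high arrays and 1 with only the arrays compared. In that comparison 1 imprinted gene passed with the block, and the median of the imprinted genes, 0.29, was 0.39 with centring on the median and 0.18 without a filter. In Ing1-KO against WT, where 1 gene passed, there were 5 with quantile normalization, 4 with median centring, 2 with normexp, 2 with the authors' values and 11 with every probe. In DKO against Ing1-KO, where 1 passed, 0 did without the 3 muscle-high arrays and 0 with only the arrays compared. The F-test gave 627 genes, and 364 without a filter, 185 with plain empirical Bayes, 1256 with the block, 1 without the 3 muscle-high arrays, and 1 imprinted gene with the block.

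With each array left out in turn, imprinted genes called ranged from 0 to 15 in DKO against Gadd45a-KO, 0 to 7 in DKO against WT and 0 to 6 in the F-test, and were 0 throughout in the other comparisons. Genes called in all ranged from 545 to 7071 in DKO against Gadd45a-KO, 1 to 3332 in DKO against WT, 1 to 16 in Ing1-KO against WT, 0 to 1 in Gadd45a-KO against WT, 0 to 3 in DKO against Ing1-KO, 24 to 2873 in the F-test and 0 to 0 in the interaction. The median of the imprinted genes ranged from 0.29 to 0.44, 0.20 to 0.34, 0.09 to 0.22, -0.25 to -0.040 and 0.030 to 0.16 in those 5 comparisons and from 0.15 to 0.31 in the interaction. No median changed sign under these.

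Of the correlations, Meg3 and Dlk1 reached 0.69 and Grb10 and Ddc -0.64 after removing genotype means (adjusted permutation p = 0.0266 and 0.0406). Igf2r and Airn reached 0.75 with the replicate block (adjusted permutation p = 0.0158), and Zrsr1 and Commd1 fell to 0.64 without 2 arrays. Same-numbered arrays correlated at a median of 0.12 and others at -0.10, the higher value being that within slides. The main fit nevertheless leaves the slide out, and the block is given as an alternative. The block ended no call. Normexp moved the median of all genes from -0.04 to -0.13 in Ing1-KO against WT and from 0.01 to 0.13 in the interaction. The causes of these shifts were not tested.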
